A study of Mus musculus with 9 samples.

Results

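The circular RNAs of C2C12 cells at day 6 of differentiation were compared with those of proliferating cells at day 0. C2C12 is an established mouse myoblast line from skeletal muscle that leaves the cell cycle and fuses into multinucleated myotubes when serum is lowered. The comparison took the 3 libraries labelled day 6 and the 3 labelled proliferation, 6 of the 9 in the series, with every circRNA listed in any of them: 29443 of 37751 circRNAs, from 6340 of 6943 host genes. The other 3 libraries, from day 3, entered the same fit and are described only where day 6 was tested against them. Day 0 cells were growing below confluence in DMEM with 10% fetal bovine serum, and day 6 cells had spent 6 days in DMEM with 2% horse serum after reaching confluence. No genotype or further agent is named for either group, and the labels name no exonuclease digestion. All libraries started from 1000 ng of RNA taken through a bead clean-up and a DNase step that the labels describe as circRNA enrichment. Day 6 cultures of this line commonly hold unfused cells beside the myotubes, and in such bulk samples fewer cells of a type and less RNA per cell cannot be told apart. The labels do not say whether libraries came from separate cultures, and the spread that the p-values rest on may therefore be technical.

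A circRNA forms when a splice donor joins an acceptor upstream of it, or of its own exon, which closes the exons between them into a ring. Rings have no free ends, so exonucleases degrade them slowly and they can persist in cells that no longer divide. Reads that cross the back-splice junction count the ring and not the linear messenger RNA of the same host gene. No linear reads were analysed here, so a change in the transcription of a host and a change in the circular share of its RNA cannot be told apart. Levels below are back-splice reads in CPM (counts scaled to a common back-splice total with TMM factors). Each ring has one junction, so levels of rings were set side by side without a length correction. Levels summed by host are on their own CPM scale.

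The junction that identifies a ring is the only sequence that separates it from linear RNA, and the junctions of the 4 most abundant exonic rings called higher and the 4 called lower at day 6 (adjusted p under 0.05) are shown here, Zfp516 left out. Each line gives the last 15 bases of the donor exon in capitals and then the first 15 bases of the acceptor exon in lower case, 5′ to 3′ on the strand of the gene, from GENCODE M21 transcripts of GRCm38. The higher rings come first.
Nfix exon 2: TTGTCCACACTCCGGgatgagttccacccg
Gigyf2 exons 4 to 8: GAAGAAAAGATGTAGgctccgtgctctgtc
Cnot6l exons 2 to 4: CTCTAGGTTTAACAGactaatagggatgcc
Ttn exons 123 to 127: CTCCCCCAACCAAAGaggaggaatggactt
Nfkb1 exons 2 to 6: TACCCACAGGTCAAAgtaccctcagaggcc
Dcbld2 exons 2 to 3: TTATAGATAAAGAAGgtgatggatgtggac
Spag5 exons 17 to 23: CAGCATGTCTATGAGtgccagaaccagctc
Agap1 exons 2 to 6: GGGTCTTCCAGGACGatgctttcgtgaaca
They lie at 8:84771784-84772315, minus strand (Nfix), 1:87364104-87380008, plus strand (Gigyf2), 5:96128943-96134132, minus strand (Cnot6l), 2:76853605-76856366, minus strand (Ttn), 3:135655500-135669339, minus strand (Nfkb1), 16:58424561-58433463, plus strand (Dcbld2), 11:78319986-78321766, plus strand (Spag5) and 1:89604598-89634294, plus strand (Agap1). If the annotated exons are all retained, the Nfix ring is 532 bases, the Gigyf2 ring 494, the Cnot6l ring 395, the Ttn ring 414, the Nfkb1 ring 326, the Dcbld2 ring 366, the Spag5 ring 713 and the Agap1 ring 510. All bases of the Nfix, Gigyf2, Ttn, Dcbld2, Spag5 and Agap1 rings are annotated as coding, against 385 of 395 for Cnot6l and 249 of 326 for Nfkb1.

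Day 0 libraries held 317159, 230183 and 263833 back-splice reads, and day 6 libraries 208787, 243471 and 443955. The smallest value above 0 was 2 in every library, so a ring listed at 0 may have had a single read. Myotube markers moved with the labels: 13 of 21 had reads, and their summed host level was 319 to 525 CPM at day 0 and 12594 to 16658 at day 6. Ttn, Ryr1 and Dysf made up most of the day 6 sum, at 10001.5, 4446 and 1290 CPM in replicate 1. Neb, Mef2c and Cacna1s had reads only in day 6 replicate 3. Tnnt3, Myh8, Atp2a1, Mybpc1, Xirp1, Trdn, Tmem8c and Myog were at 0 in all 6 libraries, which concerns their rings and not their messenger RNAs. The proliferation markers went the other way, from 6706 to 7415 CPM at day 0 to 478 to 688 at day 6, with 14 of 16 having reads and Cenpe and Ccnb1 at 0. Spag5 (2918, 3333 and 3633 CPM) and Knl1 (1407, 1269 and 1230) made up most of their day 0 sum. Markers of other cells a culture could hold overlapped between the days: 134 to 338 against 184 to 280 CPM for quiescent or reserve cells (5 of 10 with reads), 330 to 678 against 384 to 640 for adipocytes or osteoblasts (2 of 11) and 0 to 159 against 68.5 to 378 for fibroblasts (6 of 10). Single members lay apart between the days: Pax7, a satellite cell factor, was at 29.8, 67.0 and 129 CPM at day 0 and 160.0, 241 and 177 at day 6, Notch3 at 104, 102 and 140.5 and then 97.0, 0 and 0, and the fibroblast marker Dcn at 0 in the day 0 libraries and 53.3, 51.7 and 23.6 at day 6. Such separation is common, as 23.7% of all hosts tested had day 6 libraries wholly apart from day 0. The part of these cells in the results was not tested. Adipoq, Fabp4, Sp7, Bglap, Pdgfra and Thy1 were at 0, which again concerns rings and not messenger RNAs. Other members of these lists had reads. Pparg, of the adipocyte or osteoblast list, was at 191, 422 and 94.9 CPM at day 0 and 213, 99.1 and 177 at day 6. Runx2 also had reads in all 6 libraries. In the fibroblast list Col1a1, Col1a2, Col3a1, Dcn, Pdgfrb and Ddr2 had reads in some libraries.

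At day 6, 162 of 8153 tested circRNAs passed an edgeR adjusted p of 0.05, which is 1.99%, with 120 higher (1.47%) and 42 lower (0.515%). Among host genes, 233 of 4135 passed (5.63%), 159 higher (3.85%) and 74 lower (1.79%). With DESeq2, 466 circRNAs passed and 58.4% of them were higher, against 74.1% here. For hosts the share higher was 68.2%, and it was 57.6% with library totals alone as scaling and 53.5% with DESeq2. Without day 0 replicate 3, 169 circRNAs were called higher and 28 lower, and hosts called lower fell from 74 to 42. In a fit of only the day 6 and day 0 libraries, 70 circRNAs and 139 hosts passed. Among the 120 higher rings, 36 had no reads in any day 0 library, and 7 of the 42 lower rings had none at day 6. Of all 8153 circRNAs tested, 1657 (20.3%) had a group without reads, against 16.7% of the lower and 30% of the higher rings. The 3 day 6 libraries lay wholly apart from the 3 day 0 libraries for 119 of 120 higher and 42 of 42 lower rings, and for 16.4% of all circRNAs tested. Among hosts this held for 156 of 159 higher and 74 of 74 lower ones, and for 23.7% of all hosts tested.

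**Figure D1:**
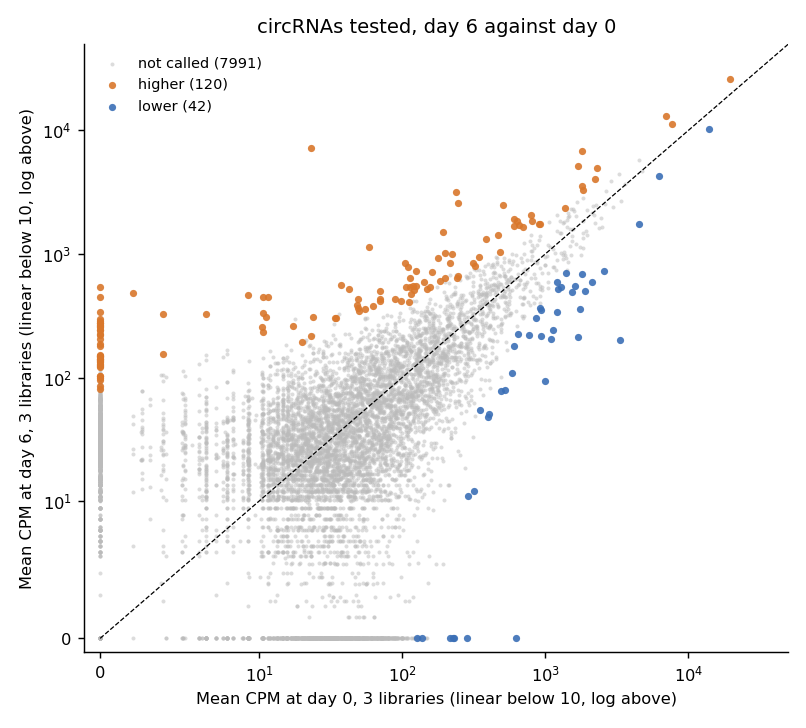
Mean level of each of the 8153 tested circRNAs at day 0 (x axis) and day 6 (y axis), in CPM over 3 libraries, on axes that are linear below 10 and logarithmic above. Orange points are the 120 rings called higher at day 6 and blue points the 42 called lower; the 36 and 7 with no reads in one group lie on the axes.

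The most abundant rings were partly the same on both days. The Nfix ring ranked first on both days among the rings tested, and 11 of the 20 most abundant rings at day 0 were also among the 20 at day 6. The 10 most abundant rings of each library took 7.24 to 8.07% of reads at day 0 and 8.92 to 10.4% at day 6, and the 10 most abundant hosts 9.08 to 9.87% and 11.1 to 12.8%. These groups did not overlap, and a two-sided exact permutation test gave p = 0.1, the smallest possible with 3 against 3 (0.2 after Benjamini-Hochberg adjustment over 12 library measures). Libraries listed 7458 to 11119 circRNAs at day 0 and 7363 to 10780 at day 6 (exact permutation p = 0.7), and thinned to the smallest library they listed 7433 to 10839 and 7363 to 10218.

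Of the 12 most abundant rings that were higher, 7 belong to Nfix, Gigyf2, Cnot6l, Rad52, Samd4, Srpk2 and Senp6. The exon 2 ring of Nfix, a nuclear factor I transcription factor that drives the switch to the fetal muscle programme, was at 17530.1, 20287 and 20534 CPM at day 0 and 22424, 32857 and 23041 at day 6. All day 6 values lay above all day 0 values, with replicate 2 of day 6 the highest, and the log2 fold change was 0.42 ± 0.09 (approximate SE, edgeR adjusted p = 0.00313). This small difference did not pass with a minimum count of 10 (adjusted p = 0.182), in the fit of only these 2 groups (0.221) or with DESeq2 (0.247). The ring of exons 4 to 8 of Gigyf2, a translational repressor that binds the cap-binding protein 4EHP, went from 7386, 5880.4 and 7507 to 12685, 12958 and 13595 CPM. The 3 day 6 libraries lay close together and none came near day 0, a log2 difference of 0.92 ± 0.10 (edgeR adjusted p = 4.18e-10), and the ring moved from rank 4 to rank 2. For exons 2 to 4 of Cnot6l, a deadenylase of the CCR4-NOT complex that shortens poly(A) tails, the values were 7302, 7662 and 8144 CPM at day 0 and 11248, 11505 and 10804 at day 6, a log2 rise of 0.54 ± 0.10 (edgeR adjusted p = 9.54e-05). It held rank 3 on both days.

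The single-exon ring of Samd4 exon 2 (14:47016277-47016795, plus strand), from the gene of the RNA-binding translational repressor Smaug1, rose from 2071, 2749 and 1823 to 3373, 5144 and 3693 CPM, by 0.88 ± 0.18 log2 (edgeR adjusted p = 0.000902). It did not pass with DESeq2 (0.0882) or in the fit of only these 2 groups (0.117). Exons 2 to 6 of Srpk2, a kinase of SR splicing factors, gave 2005, 1600.2 and 1839 CPM at day 0 and 3400.4, 3331 and 3982 at day 6, a log2 difference of 0.98 ± 0.18 (edgeR adjusted p = 0.00013). Exons 2 to 6 of Senp6, a protease that removes SUMO chains, gave 1780.2, 1785 and 1966 CPM at day 0 and 2807, 4000.1 and 3094 at day 6, 0.84 ± 0.18 log2 (edgeR adjusted p = 0.00194, and 0.0622 in the fit of only these 2 groups). In each of these rings the 2 groups did not overlap. A ring of exons 10 to 11 of Rad52 (6:119920110-119921028, plus strand), a factor of homologous recombination, also rose, from 2039, 2206 and 2591 to 4564, 5128 and 5309.9 CPM. The difference was 1.13 ± 0.14 log2 (edgeR adjusted p = 5.74e-08) and the ring moved from rank 21 to rank 9.

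The other 5 of these 12 rings belong to Tns3, Utrn, Lrp4, Ryr1 and Ttn. The ring of exons 18 to 20 of Tns3 (11:8478225-8479665, minus strand), which encodes the focal adhesion protein tensin 3, was at 1627, 1369 and 2448 CPM at day 0 and 7039, 8556 and 4874 at day 6. Replicate 3 was the highest at day 0 and the lowest at day 6, and the groups still lay apart by a log2 difference of 1.91 ± 0.17 (edgeR adjusted p = 5.48e-13). Exons 60 to 64 of Utrn (10:12436281-12455564, minus strand), the dystrophin homologue enriched at the neuromuscular junction, gave 1961, 1616 and 1516 CPM at day 0 and 4968, 5290.2 and 5312 at day 6. The day 6 values spanned little and all exceeded day 0, by 1.61 ± 0.15 log2 (edgeR adjusted p = 5.33e-12). Exons 14 to 16 of Lrp4 (2:91480313-91481980, plus strand), the muscle receptor for nerve-derived agrin, gave 353, 212 and 167 CPM at day 0 and 2340.3, 2487 and 2888 at day 6, a log2 rise of 3.39 ± 0.26 (edgeR adjusted p = 2.3e-15). Exons 85 to 89 of Ryr1 (7:29035980-29040893, minus strand), the calcium release channel of the sarcoplasmic reticulum, gave 387, 201 and 127 CPM at day 0 and 3827, 2665 and 3021 at day 6, a log2 rise of 3.73 ± 0.27 (edgeR adjusted p = 1.89e-16). The Ryr1 ring moved from rank 637 to rank 19. The Ttn ring shown above, of the giant sarcomere spring titin, had 37.5, 0 and 31.8 CPM at day 0 and 7843, 5696 and 8127 at day 6 and moved from rank 5068 to rank 5.

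**Figure D2:**
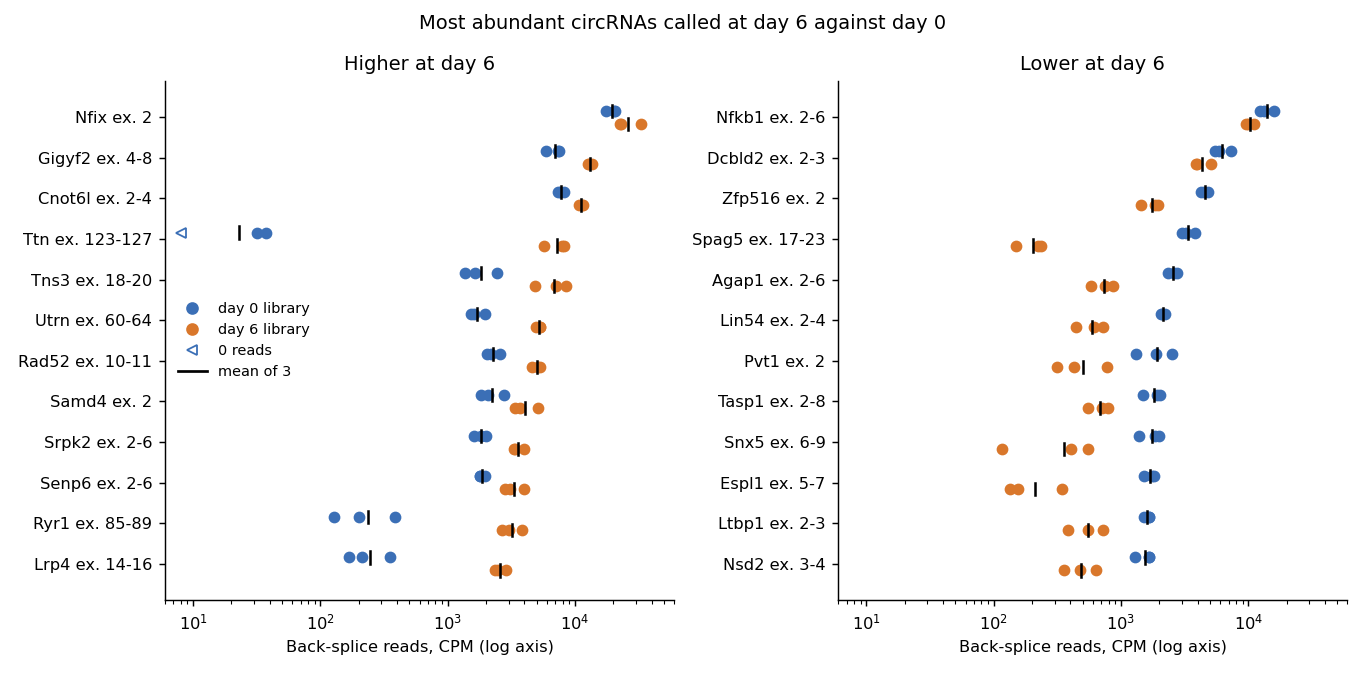
Level of the 12 most abundant rings called higher (left, by day 6 mean) and the 12 called lower (right, by day 0 mean), in back-splice CPM on a log axis, with blue points for day 0 libraries, orange points for day 6 libraries and black bars for the mean of 3. An open triangle marks the day 0 library with 0 reads for the Ttn ring, and in each of the 24 rings the orange and blue points do not overlap.

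The 12 most abundant rings that were lower came from Nfkb1, Dcbld2, Zfp516, Spag5, Agap1, Lin54, Pvt1, Tasp1, Snx5, Espl1, Ltbp1 and Nsd2. The ring of exons 2 to 6 of Nfkb1, which encodes the p105 and p50 subunits of NF-kappaB, was the second most abundant ring at day 0, at 13383, 12389 and 16033 CPM, and stood at 9658, 9923 and 11159.5 at day 6. The difference of -0.44 ± 0.10 log2 (edgeR adjusted p = 0.00502) was small beside most calls, and it did not pass with a minimum count of 10 (0.0801) or in the fit of only these 2 groups (0.127). Exons 2 to 3 of Dcbld2, a transmembrane receptor-like protein, gave 5925, 5483 and 7276 CPM at day 0 and 3868, 3951 and 5087 at day 6, -0.53 ± 0.14 log2 (edgeR adjusted p = 0.0221). It did not pass without day 0 replicate 3 (adjusted p = 0.0739), with a minimum count of 10 (0.0963) or in the fit of only these 2 groups (0.186). The ring of exons 2 to 6 of Agap1, an Arf GTPase-activating protein of endosomes, fell from 2736, 2607 and 2336 to 584, 860.1 and 746 CPM. The lowest day 0 value was far above the highest day 6 value, and the log2 difference was -1.81 ± 0.23 (edgeR adjusted p = 9.42e-08). The exon 2 ring of Zfp516, a zinc finger transcription factor gene, fell from 4276, 4808 and 4494 to 1433, 1947 and 1849 CPM, by 1.38 on the log2 scale (edgeR adjusted p = 1.61e-08).

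The exon 2 ring of Pvt1 (15:62107148-62107465, plus strand), a long non-coding RNA gene next to Myc, had 1309, 1897 and 2519.5 CPM at day 0 and 314, 775 and 424 at day 6. Replicates of each day spread widely, yet the groups did not overlap. The difference was -1.92 ± 0.30 log2 (edgeR adjusted p = 1.05e-05). A ring of exons 2 to 4 of Lin54 (5:100475689-100485855, minus strand), a DNA-binding subunit of the DREAM complex that controls cell cycle genes, had 2046, 2229 and 2078 CPM at day 0 and 445, 722 and 615 at day 6, -1.83 ± 0.26 log2 (edgeR adjusted p = 9.45e-07). Exons 5 to 7 of Espl1 (15:102299803-102304145, plus strand), the gene of separase, which cleaves cohesin at anaphase, gave 1765, 1504 and 1803 CPM at day 0 and 346, 134 and 156 at day 6. That is a log2 difference of -3.0 ± 0.35 (edgeR adjusted p = 3.61e-09), with day 6 replicate 1 above the other day 6 libraries. Also lower were exons 2 to 8 of Tasp1, the protease that cleaves MLL (-1.39 ± 0.27 log2), exons 6 to 9 of Snx5, a sorting nexin of endosomes (-2.28 ± 0.36), exons 2 to 3 of Ltbp1, which stores latent TGF-beta in the matrix (-1.54 ± 0.29), and exons 3 to 4 of Nsd2, a histone H3 methyltransferase (-1.65 ± 0.29). Their edgeR adjusted p-values were 0.000321, 1.23e-05, 0.000254 and 0.000106. In Snx5 the day 6 libraries held 117, 548 and 402 CPM, with replicate 1 the lowest, against 1387, 1832 and 1986 at day 0. The Spag5 ring, of a mitotic spindle protein, stood at 3004, 3231 and 3801 CPM at day 0 and 148, 223 and 234 at day 6 and moved from rank 11 to rank 823.

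Some abundant rings gave no call. The ring of exons 2 to 4 of Spred2, an inhibitor of Ras and ERK signalling, was at 4194, 3960.1 and 5298 CPM at day 0 and 5238, 5663 and 6418 at day 6, ranges that overlap, with a log2 difference of 0.36 ± 0.13 (edgeR adjusted p = 0.202). For exons 2 to 6 of Phf21a, a reader of unmethylated histone H3, the ring was at 4488, 4230.1 and 5576 CPM at day 0 and 4797, 5156 and 4178 at day 6, a difference of -0.02 ± 0.14 (edgeR adjusted p = 1).

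Rings deposited as intronic made up 4.14 to 4.30% of reads at day 0 and 3.24 to 3.60% at day 6, ranges that do not overlap (exact permutation p = 0.1, the smallest possible, 0.2 after adjustment). Over circRNAs listed in at least 2 libraries the difference was -0.389 percentage points, against -0.829 over all. The share of reads from circBase entries was 28.6 to 29.9% at day 0 and 30.4 to 33.5% at day 6 (exact permutation p = 0.1, 0.2 after adjustment). Of 368 intronic rings tested, 9 were higher (2.45%) and 1 lower (0.272%), beside 1.47% and 0.515% of all circRNAs tested. The most abundant of the higher ones was in Brinp3 (1:146660954-146701846, plus strand), at 194, 208 and 338 CPM at day 0 and 553, 596 and 838 at day 6 (1.43 ± 0.39 log2, edgeR adjusted p = 0.0308). The next were in App, the amyloid precursor gene (128, 0 and 211 CPM at day 0 and 764, 483 and 658 at day 6, edgeR adjusted p = 0.00603), Zeb1, a repressor that binds E-boxes (adjusted p = 0.0428), and the Arf GTPase-activating protein gene Asap1 (adjusted p = 0.0192). The App ring was deposited as intronic although its ends match exons 7 and 13 of an annotated transcript. These calls were fragile. The Brinp3 ring did not pass without replicate 1 (0.177) or 2 (0.113) of day 0, or replicate 1 (0.0586), 2 (0.0528) or 3 (0.0503) of day 3, or replicate 2 (0.0718) or 3 (0.362) of day 6, as edgeR adjusted p. The Asap1 ring did not pass without replicate 1 (0.0677) or 2 (0.141) of day 0, or replicate 1 (0.0552) of day 3, or replicate 1 (0.147) or 2 (0.0796) of day 6, and the Zeb1 ring passed under none of the 9 omissions of 1 library (0.0524 to 0.325). The App ring did not pass with a minimum count of 10 (0.0652), in the fit of only these 2 groups (0.236) or with DESeq2 (0.14), and its log2 difference of 2.49 was 3.30 without day 0 replicate 3. Of 103 tested rings deposited as intergenic, without a host, 1 was called (2:77074836-77173607, minus strand). It was at 0 in the day 0 libraries and at 126, 162 and 170.4 CPM in those of day 6. That is at least 13.9-fold higher against a floor of 3 reads per library (edgeR adjusted p = 0.000288, and 0.0747 in the fit of only these 2 groups).

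The structure of the called rings is described here without a test. Of exonic rings that match a transcript, 21 of 109 higher ones (19.3%) and 20 of 40 lower ones (50.0%) begin at exon 2, the first exon preceded by an intron, against 2316 of 7361 tested (31.5%). All bases were coding in 99 of 109 higher rings (90.8%), 26 of 40 lower rings (65.0%) and 83.8% of tested rings. The median number of exons was 4 in all 3 sets. The median genomic span was 15232.5 bp for higher rings, 8911.5 bp for lower rings and 10041 bp for tested ones. Known circBase entries were 28 of 120, 17 of 42 and 9.68%. Called rings were more abundant than tested ones, with median levels over both days of 254 CPM (higher) and 613 CPM (lower) against 33.9 CPM. On presence alone the 2 states were more even: 225 rings were listed in all 3 day 6 libraries and no day 0 library, and 204 in all 3 day 0 libraries and no day 6 library. Of those tested, 35 of 206 and 7 of 183 were called.

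The calls of single rings were set beside those of their hosts, a sum that contains the ring itself and can consist mostly of it, so that shared calls are partly built in. Of the 120 higher rings, 106 belong to hosts whose summed rings were also called higher, 13 to hosts not called, and 1 has no host. Of the 42 lower rings, 34 belong to hosts called lower and 8 to hosts not called. Conversely, 75 of the 159 higher hosts and 42 of the 74 lower hosts held no single ring that was called. Ccdc141 and Ttn, neighbours on chromosome 2, had 4 higher rings each and Arhgap10 had 3. Among the rings whose hosts were not called, Bnc2 exons 2 to 4 (a zinc finger gene) rose from 81.2, 57.8 and 47.8 to 234, 559.9 and 350.4 CPM (edgeR adjusted p = 0.00112), while its host was at 0.62 log2 with adjusted p = 0.13. Adamts6 exons 9 to 13, of an extracellular protease gene, rose from 890.1, 683 and 1190.1 to 1572, 2118 and 1562 CPM (adjusted p = 0.0231), and its host had adjusted p = 0.173. In the other direction, Cabin1 exons 27 to 29 fell from 1124, 1623 and 1405 to 503, 917 and 694 CPM (adjusted p = 0.0404), and its host, a calcineurin inhibitor gene, had adjusted p = 0.0616. These 3 were chosen after their values were seen. That a ring passed and its host did not is no test of the difference, which is given next.

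A test of each ring against the summed rings of its own host (edgeR diffSpliceDGE) was run on 6549 rings and gave 10 past an adjusted p of 0.05, which is 0.153%. The host sum includes the ring itself, and 8 of the 10 are more used at day 6. For these, the junctions below show which splice site differs: the pairs of Stau2 and of Arhgap10 share the acceptor bases and differ in the donor bases. Capitals mark the donor exon as above.
Stau2 exons 2 to 5: CATGTACAATCAGAGttttgtggagctgtg
Stau2 exons 2 to 4: TCAATAATAACCCAGttttgtggagctgtg
Arhgap10 exons 9 to 12: CGAGACCGGAAGGAGggcctgctccatttg
Arhgap10 exons 9 to 13: CCGTTGAAACCCGAGggcctgctccatttg
Ap3d1 exons 12 to 16: GAGGAGCTGGCTCGGtaaagtacctggggc
The Stau2 rings lie at 1:16440323-16509408, minus strand and 1:16463035-16509408, minus strand, those of Arhgap10 at 8:77384751-77411128, minus strand and 8:77382725-77411128, minus strand, and that of Ap3d1 at 10:80715871-80719812, minus strand.

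Zbtb38, a gene of a zinc finger protein that binds methylated DNA, used one back-splice acceptor less. A ring at 9:96718210-96752573, minus strand held 123, 180 and 199 reads at day 0, 14.6, 23.6 and 21.8% of the host's reads, and none in any day 6 library, at least 57.1-fold lower. A second ring with the same acceptor (9:96731292-96752573) held 46, 20 and 41 reads at day 0 and also none at day 6. The level of this second ring was not called (edgeR adjusted p = 0.0979). The same donors joined to the acceptor at 96732313 remained listed: the ring of exons 3 to 5 held 63.7, 63.0 and 53.8% of host reads at day 0 and 87.5, 81.5 and 85.1% at day 6. The change of use was past the threshold (adjusted p = 1.37e-09) in all alternatives run as well. Ap3d1, of the AP-3 adaptor complex, changed in the opposite sense. Its ring of exons 12 to 16 had no reads at day 0 and made up 90.2, 94.1 and 59.0% of host reads at day 6 (adjusted p = 2.27e-07). A ring of exons 12 to 23, which shares its acceptor, made up 55.8, 44.0 and 33.3% at day 0 and 0, 0 and 13.4% at day 6. The level of this longer ring was not called (edgeR adjusted p = 0.483). In Stau2, a double-stranded RNA-binding protein of transport granules, the ring of exons 2 to 5 held 2, 0 and 0 reads at day 0 and 77, 179 and 155 at day 6, 28.6, 54.6 and 24.9% of the host, and the ring one exon shorter held 113, 0 and 91 and 135, 116 and 397 reads. Day 0 replicate 2 had only 5 reads of Stau2 in all. The use changed by 5.38 log2 (adjusted p = 3.22e-05) and did not pass without day 0 replicate 3 (4.22, adjusted p = 0.127). Without day 0 replicate 1, the only day 0 library with reads of this ring, the use passed (adjusted p = 0.00256). Day 0 is then at 0, so the size of that change is not defined. In Samd4 the exon 2 ring made up 49.9, 57.5 and 48.3% of host reads at day 0 and 78.8, 90.6 and 82.5% at day 6. The use of this exon 2 ring did not pass (0.61 log2, adjusted p = 0.886). An intronic ring (14:46910111-46917051, plus strand) fell from 7.30, 9.02 and 5.58% to 0.630, 0 and 0.212%. The use of the intronic ring changed by -4.96 log2 (adjusted p = 0.0047), but not without replicate 1 (0.0946), 2 (0.194) or 3 (0.0533) of day 0, or replicate 2 (0.476) or 3 (0.235) of day 6, as adjusted p. The use was -6.06 log2 without day 6 replicate 1 and -4.22 without day 6 replicate 2. The level of the ring was at -4.69 log2, and at -5.75 without day 6 replicate 1. Summed Samd4 rings were not called (0.28 log2, edgeR adjusted p = 0.435).

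**Figure D3:**
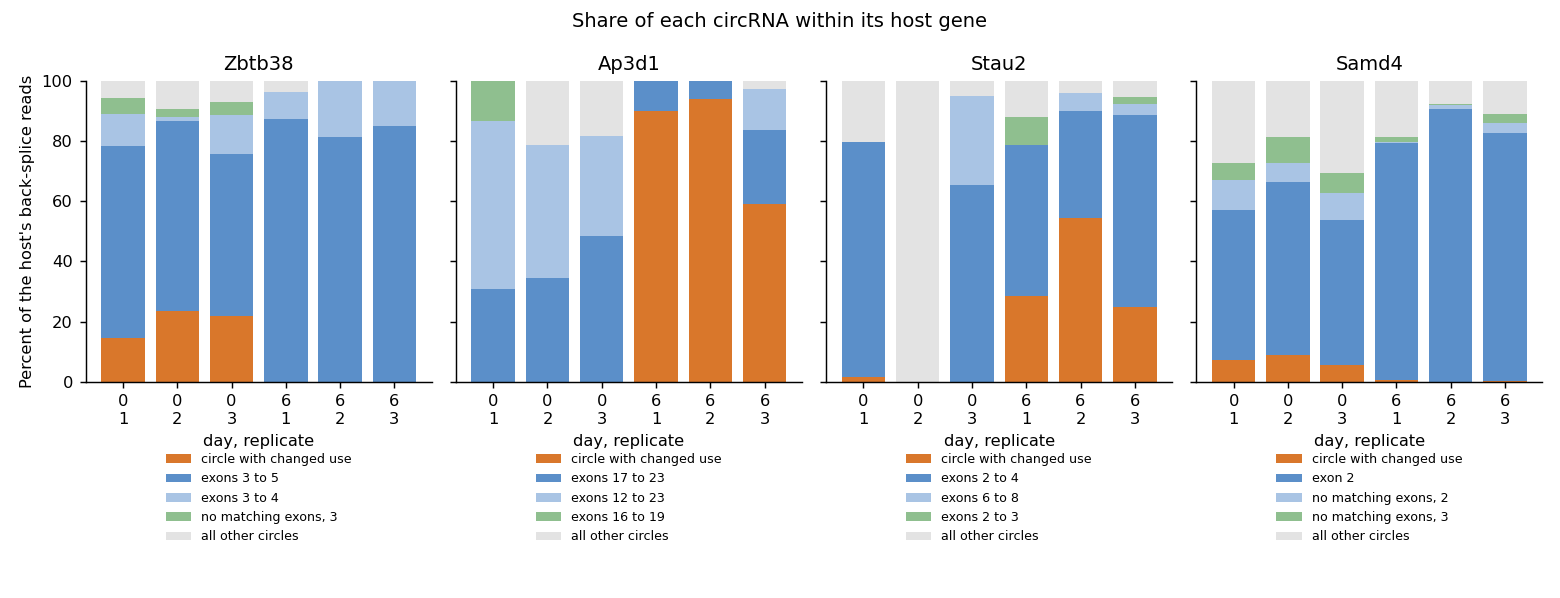
Percent of a host's back-splice reads taken by single rings in each library of day 0 and day 6 (replicates 1 to 3), for 4 hosts with a change of use. Orange is the ring whose use changed: in Zbtb38 and Samd4 it is near or at 0 at day 6, and in Ap3d1 and Stau2 it is near or at 0 at day 0; day 0 replicate 2 of Stau2 rests on 5 reads.

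The other 6 were listed mainly at day 6. Rings of Nav2 exons 7 to 11, of Rmdn2, of Gm13483, of Etv6 and of Ranbp9 exons 4 to 9 had no reads in any day 0 library. At day 6 they took, in this order, 17.8, 23.2 and 22.6%, 16.1, 23.9 and 18.1%, 83.7, 59.4 and 55.0%, 46.5, 61.3 and 42.1% and 20, 26.7 and 28.7% of host reads. The Etv6 ring (6:134062064-134066465, plus strand) was deposited as intronic. It extends past 134066307, where a ring of Etv6 exons 2 to 3 begins. Day 0 held few host reads: 15, 32 and 22 for Gm13483, 29, 17 and 44 for Etv6, and 46 to 288 for Nav2, Rmdn2 and Ranbp9. Day 6 held 86, 96 and 258 for Gm13483 and 101, 150 and 278 for Etv6. The Arhgap10 ring of exons 9 to 12 went from 0, 0 and 5 to 89, 58 and 149 reads, 3.12, 1.95 and 2.92% of its host at day 6, while the ring ending one exon later (exons 9 to 13) took 11.7, 15 and 11.8% and 13.8, 12.5 and 16.1%. Nav2 encodes a neuron navigator protein, Rmdn2 a regulator of microtubules, Etv6 an ETS-family repressor and Ranbp9 a scaffold of a ubiquitin ligase. Adjusted p-values were 0.0047 (Nav2), 0.00891 (Rmdn2), 0.00891 (Gm13483), 0.00891 (Etv6), 0.00891 (Arhgap10) and 0.0362 (Ranbp9). All 6 lost their calls in some fits that left out 1 library. Such fits also let more rings pass the filter, so a lost call need not reflect the library left out. The Nav2 ring had no day 0 reads, and neither did that of Arhgap10 once day 0 replicate 3 was left out. The size of their change of use is then not defined and is not given. Nav2 did not pass without replicate 1 (0.249), 2 (0.118) or 3 (0.103) of day 0, or replicate 2 (0.069) or 3 (0.0888) of day 6, and Rmdn2 without replicate 1 (0.22), 2 (0.118) or 3 (0.127) of day 0, or replicate 2 (0.0683) of day 3, or replicate 2 (0.171) of day 6. Gm13483 did not pass without replicate 1 (0.181), 2 (0.656) or 3 (0.119) of day 0, or replicate 1 (0.114), 2 (0.069) or 3 (0.0782) of day 6, and Etv6 without replicate 1 (0.181), 2 (0.107) or 3 (0.127) of day 0, or replicate 2 (0.069) of day 6. Arhgap10 did not pass without replicate 1 (0.418) or 2 (0.402) of day 0, or replicate 2 (0.0683) or 3 (0.0647) of day 3, or replicate 1 (0.34), 2 (0.091) or 3 (0.256) of day 6, and Ranbp9 without replicate 1 (0.431), 2 (0.323) or 3 (0.259) of day 0, or replicate 1 (0.132) or 2 (0.0805) of day 3, or replicate 1 (0.138), 2 (0.364) or 3 (0.568) of day 6. Rmdn2 did not pass in the fit of only these 2 groups (0.331), nor Ranbp9 with a minimum count of 10 (0.0708). With 1 library left out, 3 to 11 rings passed in all.

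Summed by host, the genes with the most reads among those called higher were Nfix, Gigyf2, Cnot6l, Arhgap10, Tns3, Ttn, Utrn, Rad52, Stx6 and Senp6. Arhgap10, with 81 different rings listed, went from 6005, 6674 and 8182 to 13836, 12848 and 12049.5 CPM summed by host, a log2 rise of 0.89 ± 0.13 (edgeR adjusted p = 9.47e-06). Its libraries did not overlap. Stx6, a SNARE of endosomes, went from 3237, 2916 and 3455 to 4703, 4939 and 5082 CPM (0.62 ± 0.16 log2, edgeR adjusted p = 0.0111), and did not pass without day 0 replicate 2 (0.0755). Summed Nfix rings (0.50 ± 0.13 log2, 0.0114) did not pass with library totals as scaling (0.0758), with DESeq2 (0.103) or without day 6 replicate 2 (0.0976), and Senp6 did not without day 6 replicate 2 (0.0588). The hosts called lower with the most reads at day 0 were Tasp1, Zfp516, Pvt1, Spag5, Ltbp1, Zbtb38, Ube2cbp, Lin54, Snx5 and Diaph3. Tasp1 rings summed to 5359, 6792 and 6439 CPM at day 0 and 3335, 3409 and 3596 at day 6 (-0.85 ± 0.16 log2, edgeR adjusted p = 0.000397). Pvt1 rings summed to 2858, 4161 and 4066 CPM at day 0 and 606, 1155 and 957 at day 6 (-2.03 ± 0.24 log2, 9.09e-08), Ube2cbp rings to 2515, 2971 and 2829 at day 0 and 1314, 1125 and 1151 at day 6 (-1.21 ± 0.21, 0.000122). Zbtb38 lost its call without replicate 3 (0.0622) of day 0, or replicate 1 (0.0631) of day 6, as edgeR adjusted p.

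Gene lists were read against all hosts tested, of which 3.85% were higher and 1.79% lower, with a median log2 difference of -0.13. The lists and their members were chosen with earlier results of these data known. Their shares can therefore be partly built in and are described without a test. Medians below place hosts with no reads in one group at their bound. In the list of myogenic regulators and fusion genes, 10 of 42 tested hosts rose (23.8%), with a median of 0.41. Dysf, the membrane repair protein dysferlin, went from 119, 244 and 110.1 to 1289.6, 1315 and 1566 CPM summed by host (3.14 ± 0.31 log2, edgeR adjusted p = 2.27e-09). Mef2a, a MADS-box activator of muscle genes, went from 339.8, 355 and 599.9 to 1653, 1496 and 1760.2 (1.92 ± 0.27, 2.27e-06). Day 6 lay apart from day 0 in both. The E-protein genes Tcf4 (2.33 ± 0.53 log2) and Tcf12 (1.43 ± 0.37), partners of the MyoD family, rose as well (edgeR adjusted p = 0.00336 and 0.0139), as did Celf2, a splicing regulator (2.88 ± 0.44, 1.58e-05), Zeb1 (1.0 ± 0.23, 0.00475), Bin1, which shapes T-tubules (2.56 ± 0.64, 0.00913), Elmo1, which activates Rac with Dock1 (2.76 ± 0.64, 0.00428), and Myof, a ferlin of myoblast fusion (1.24 ± 0.33, 0.0155). Nfix, described above, is the tenth. Tcf12 did not pass without replicate 1 (0.223) of day 6, Bin1 without replicate 3 (0.0509) of day 0 and Myof without replicate 2 (0.0525) or 3 (0.0738) of day 0, or replicate 3 (0.0776) of day 6, as adjusted p. Without day 0 replicate 3 Celf2 was at 3.63 log2, without day 0 replicate 2 Bin1 was at 4.22 and Elmo1 at 2.17, and without day 0 replicate 1 Elmo1 was at 3.36. In the fit of only these 2 groups Bin1, Elmo1 and Tcf12 did not pass (adjusted p = 0.105, 0.123 and 0.0977).

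In the list of the dystrophin complex, costamere and neuromuscular junction, 6 of 35 tested hosts rose (17.1%, median 0.68). Besides Lrp4, Utrn and Tns3 these were Macf1, Ccdc141 and Svil. Macf1, a giant linker of actin and microtubules, went from 238, 252 and 482 to 2647, 2228 and 1791 CPM summed by host (2.78 ± 0.26 log2, edgeR adjusted p = 9.91e-10), and Ccdc141 from 98.4, 27.6 and 399 to 1740.4, 1310.2 and 1812 (3.22 ± 0.44, 2.11e-06). Ccdc141 was at 4.65 log2 without day 0 replicate 3, the day 0 library with the most reads of it. Svil, the actin-binding protein supervillin (1.65 ± 0.48 log2, edgeR adjusted p = 0.0308), did not pass without replicate 2 (0.131) of day 0, or replicate 2 (0.198) of day 6, or in the fit of only these 2 groups (0.107). Dtnb, the dystrobrevin with the most reads, was at 1846 ± 279 CPM at day 0 and 2165 ± 514 at day 6 (SD, n = 3; edgeR adjusted p = 0.673).

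Of 28 calcium handling hosts, 4 rose (14.3%, median 0.75): Ryr1, Nos1, Pde4dip and Ryr3. Pde4dip, which encodes myomegalin, went from 671, 532 and 607 to 1173, 1427 and 1488 CPM summed by host (1.18 ± 0.26 log2, edgeR adjusted p = 0.00242), with no overlap. Nos1, the neuronal nitric oxide synthase of the muscle membrane, was at least 30.1-fold higher (3.29e-05), with no reads at day 0. Ryr3, the minor ryanodine receptor (1.76 ± 0.54 log2, 0.0472), did not pass without replicate 1 (0.0843), 2 (0.11) or 3 (0.122) of day 0, or replicate 1 (0.0679) of day 3, or replicate 2 (0.177) or 3 (0.194) of day 6, nor with library totals as scaling, a minimum count of 10, no filter or only these 2 groups (adjusted p = 0.0765, 0.0501, 0.0817 and 0.0634). Of 23 sarcomere hosts, 2 rose, Ttn and the slow troponin T gene Tnnt1 (0, 0 and 11.4 CPM at day 0 and 407, 310.3 and 312 at day 6, edgeR adjusted p = 6.95e-06), against a median of 0.74. Speg, a titin-associated kinase gene, was at 391 ± 136 and 141 ± 121 CPM (SD, n = 3; 0.0923). Tnnt1 was at 5.77 log2 without day 0 replicate 1, against 6.41, and Ttn at 8.85 without day 0 replicate 3, against 7.93. Of 28 energy metabolism hosts, 2 rose (7.14%, median 0.24). Abca1, the cholesterol exporter, went from 0, 67.0 and 0 to 868, 866 and 1018 CPM (5.42 ± 0.65 log2, edgeR adjusted p = 1.36e-07; 4.75 without day 0 replicate 1). Lpin1, a phosphatidate phosphatase, was at 0 in the day 0 libraries and at 0, 90.5 and 142 CPM in those of day 6 (adjusted p = 0.0404). Replicate 1 of day 6 had none either, so the groups overlap. Lpin1 did not pass without replicate 1 (0.072), 2 (0.0905) or 3 (0.097) of day 0, or replicate 1 (0.0534) or 3 (0.0599) of day 3, or replicate 3 (0.111) of day 6, and its bound of 7.22-fold was 4.16 without day 6 replicate 3. Phkb, of phosphorylase kinase, had the most reads of the list, 2448 ± 568 and 2273 ± 135 CPM (SD, n = 3; 0.928).

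Among other called hosts, some act on actin, microtubules and adhesion. Lrch1, a leucine-rich repeat protein that inhibits the exchange factor DOCK8, went from 158, 193 and 163 to 1454, 1164 and 1392 CPM summed by host (2.96 ± 0.29 log2, edgeR adjusted p = 1.68e-09). Ablim1, an actin-binding LIM protein, went from 709, 362 and 683 to 2114, 1823 and 2148 (1.79 ± 0.25, 2.11e-06), and Cobl, an actin nucleator, from 23.8, 0 and 68.3 to 494, 595 and 676 (4.24 ± 0.68, 2.79e-05; 5.48 without day 0 replicate 3). None of the 3 overlapped between days. Asap1 (1.04 ± 0.21 log2, edgeR adjusted p = 0.000888), Enah, an Ena/VASP protein (2.41 ± 0.56, 0.00465), Trio, an exchange factor for Rac (0.77 ± 0.21, 0.0169), the unconventional myosin gene Myo1e (0.80 ± 0.23, 0.0318) and Dock4, a Rac exchange factor (2.79 ± 0.83, 0.0368), rose too, beside Macf1, Tns3, Arhgap10 and Svil. Lower were Diaph3, a formin (2331, 1694 and 2829 CPM at day 0 and 553, 211 and 291 at day 6, -2.71 ± 0.31 log2, edgeR adjusted p = 4.81e-08), Farp1, an exchange factor (-1.67 ± 0.35, 0.00114), and Racgap1, of the central spindle (-3.67 ± 0.77, 0.0013). Trio did not pass without replicate 1 (0.0825) of day 0, or replicate 3 (0.202) of day 6, Myo1e without replicate 1 (0.131) or 3 (0.0973) of day 0, or replicate 3 (0.242) of day 6 and Dock4 without replicate 2 (0.121) or 3 (0.122) of day 0, or replicate 1 (0.0534) or 2 (0.0541) of day 3, or replicate 1 (0.0757), 2 (0.105) or 3 (0.0773) of day 6. In the fit of only these 2 groups Trio, Myo1e and Dock4 did not pass (0.0671, 0.102 and 0.0945), nor with library totals as scaling (0.0517, 0.0895 and 0.0518). Racgap1 was at -5.44 log2 without day 6 replicate 1, and Dock4 at 3.49 without day 0 replicate 1.

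Of 45 cell cycle and mitosis hosts, 13 fell (28.9%, median -2.44). Cit, the citron kinase of the midbody, went from 1335, 1446 and 1382 to 223, 349 and 267 CPM summed by host (-2.31 ± 0.30 log2, edgeR adjusted p = 6.9e-07), and Knl1, a kinetochore scaffold, from 1407, 1269 and 1230.1 to 276, 198 and 118 (-2.74 ± 0.35, 6.9e-07). All day 6 libraries were far below all day 0 libraries in both. Bub1b, a spindle checkpoint kinase, went from 563, 725 and 718 to 0, 0 and 59.1 (-4.83 ± 0.79, edgeR adjusted p = 3.97e-05), and Kif14, a mitotic kinesin, from 361, 162 and 189.8 to no reads, at least 20.6-fold lower (0.00166). The others were Spag5, Espl1, Diaph3, Lin54 and Racgap1, given above, and Mtbp, Zwilch, Cep192 and Ckap5, with log2 differences of -2.36 ± 0.55, -3.44 ± 0.80, -1.84 ± 0.50 and -1.07 ± 0.31 and edgeR adjusted p-values of 0.00415, 0.00431, 0.0202 and 0.0288. Zwilch acts at the kinetochore, Cep192 at the centrosome and Ckap5 at microtubule ends. Mtbp did not pass without replicate 3 (0.0889) of day 0 and was at -3.43 without day 6 replicate 3, Cep192 not without replicate 3 (0.0738) of day 0, or replicate 2 (0.0731) or 3 (0.0715) of day 6, and Ckap5 not without replicate 2 (0.0551) or 3 (0.174) of day 0, or replicate 2 (0.115) or 3 (0.0563) of day 6. When these 2 groups were fitted alone, Zwilch (0.055) and Ckap5 (0.0678) lost their calls. Zwilch stood at -4.52 log2 without day 6 replicate 2.

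Of 58 DNA replication and repair hosts, 6 fell (10.3%, median -1.59). Topbp1, which activates the checkpoint kinase ATR, went from 423, 485 and 379.7 to 19.4, 21.5 and 47.3 CPM summed by host (-3.81 ± 0.90 log2, edgeR adjusted p = 0.0054), with no overlap. The others were Fanci, of the Fanconi anaemia pathway (0.0077), Timeless, of the replication fork (0.00771), Bard1, the partner of BRCA1 (0.0379), Uhrf1, which maintains DNA methylation (0.0412), and Rrm1, of ribonucleotide reductase (0.0469). Uhrf1 had 26.8, 70.9 and 334 CPM at day 0 and no reads at day 6, and Rrm1 had 420.2, 217 and 216 at day 0 and 48.5, 47.4 and 59.1 at day 6. Each of these 5 lost its call in some fits that left out 1 library, and such fits also test more hosts. Fanci did not pass without replicate 2 (0.0996) of day 0, Timeless without replicate 3 (0.0741) of day 0 and Bard1 without replicate 2 (0.101) or 3 (0.0815) of day 0. Uhrf1 did not pass without replicate 3 (0.381) of day 0, or replicate 1 (0.0546), 2 (0.0563) or 3 (0.0813) of day 6, and Rrm1 passed under none of the 9 omissions of 1 library (0.0584 to 0.361). In the fit of only these 2 groups Fanci (0.0508), Bard1 (0.108), Uhrf1 (0.0585) and Rrm1 (0.0556) did not pass. Bard1 did not pass with DESeq2 (adjusted p = 0.271) either. With a minimum count of 10, Bard1 (edgeR adjusted p = 0.0803) and Uhrf1 (0.0519) lost their calls. Rrm1 lost its call with no filter (0.0901) and with upper-quartile scaling (0.052). Without day 6 replicate 3, Fanci was at -4.24, Timeless at -5.54 and Bard1 at -3.24 log2, against -4.89, -6.21 and -3.87. Uhrf1 was at least 12.5-fold lower, and 4.21-fold without day 0 replicate 3.

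Splicing factors and RNA-binding proteins were split, with 4 of 71 higher (5.63%) and 3 lower (4.23%; median -0.35). Rbm20, which regulates titin splicing, went from 1928, 1265 and 1469 to 3122, 3547 and 3686 CPM summed by host (1.15 ± 0.19 log2, edgeR adjusted p = 4.75e-05), and Srpk2, Cnot6l and Celf2 rose as above. Dhx15, a helicase that takes spliceosomes apart, went from 861, 753 and 740.4 to 233, 263 and 229 (-1.70 ± 0.38, 0.00264), and Hnrnpll (-1.29 ± 0.32, 0.00913) and the cleavage factor Cpsf6 (-1.37 ± 0.39, 0.0296) fell. Hnrnpll did not pass without replicate 1 (0.0656) of day 0, nor Cpsf6 without replicate 2 (0.0853) or 3 (0.203) of day 0, or replicate 1 (0.162) or 3 (0.0597) of day 6 or in the fit of only these 2 groups (0.0899). Others act in ubiquitin conjugation. Dcun1d4, which promotes neddylation of cullins, went from 563, 741 and 661 to 1736, 1991 and 1954 CPM (1.53 ± 0.22 log2, edgeR adjusted p = 6.24e-06), and the ligase genes Pja2, Ubr3 and Arih1 rose by 1.85, 1.09 and 0.91 log2 (0.000205, 0.00578 and 0.0394). Nedd4, a HECT ligase of membrane proteins, fell from 2492, 1761 and 2221 to 809.6, 965 and 907 (-1.27 ± 0.23, 0.000132). Arih1 did not pass without replicate 1 (0.147) or 2 (0.222) of day 0, or replicate 1 (0.0534) of day 3, or replicate 2 (0.0684) or 3 (0.137) of day 6, or in the fit of only these 2 groups (0.117).

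Of 86 chromatin hosts, 1 rose and 2 fell, near the background (median 0.08). Nsd2 fell by 1.69 and Ezh2, the H3K27 methyltransferase, by 1.66 on the log2 scale, the latter from 1249, 1399 and 1348 to 543, 517 and 213 CPM summed by host (edgeR adjusted p = 1.91e-05 and 0.00158). Brwd3 rose (3.27 ± 0.77, 0.00522), but not without replicate 2 (0.0994) of day 6, where it was at 2.68, or in the fit of only these 2 groups (0.0506). Among 84 hosts of growth factor, Hippo, Wnt and TGF-beta signalling, 4 rose (4.76%, near the 3.85% of all hosts; median -0.15): Smad4, the shared TGF-beta mediator (0.69 ± 0.18 log2, edgeR adjusted p = 0.0109), the receptor Tgfbr2 (1.66 ± 0.45, 0.0176), Pik3r1, of phosphoinositide 3-kinase (1.4 ± 0.40, 0.0266), and the angiomotin Amotl1 (0.65 ± 0.19, 0.0356). Smad4 did not pass without replicate 1 (0.0825) of day 0, or replicate 2 (0.0588) of day 6, Tgfbr2 without replicate 2 (0.101) of day 0, Pik3r1 without replicate 1 (0.175) of day 0, or replicate 1 (0.114) of day 6 and Amotl1 without replicate 2 (0.31) of day 0, or replicate 1 (0.0616) or 3 (0.0535) of day 6. None of the 4 passed in the fit of only these 2 groups (0.0585, 0.15, 0.0981 and 0.14), and Tgfbr2 was at 2.52 log2 without day 0 replicate 3. Of 50 extracellular matrix and adhesion hosts, 2 fell (4.0%, median -0.09), Ltbp1 and the hyaluronan receptor Cd44 (444, 579 and 630.2 CPM at day 0 and 33.9, 116 and 9.45 at day 6, edgeR adjusted p = 0.000327). Cd44 was at -4.76 log2 without day 6 replicate 2, against -3.41. Of 41 hosts whose rings are described in muscle or widely, 5 rose and 1 fell: Ttn, Ryr1, Arhgap10, Asap1 and Nfix, and Snx5 (2381, 2703 and 2813 CPM at day 0 and 218, 1151 and 1014 at day 6, edgeR adjusted p = 0.000231; 0.0508 in the fit of only these 2 groups). In the lists of quiescent cells (12 tested), adipocytes or osteoblasts (6) and fibroblasts (6), edgeR and DESeq2 each called 0 hosts, and 0, 0 and 1 had an unadjusted edgeR p under 0.05. Notch2, the most abundant of the quiescent list, was at 551 ± 148 and 743 ± 22.7 CPM, and Runx2 of the osteoblast list at 270.1 ± 43.5 and 380.4 ± 83.1 (SD, n = 3).

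**Figure D4:**
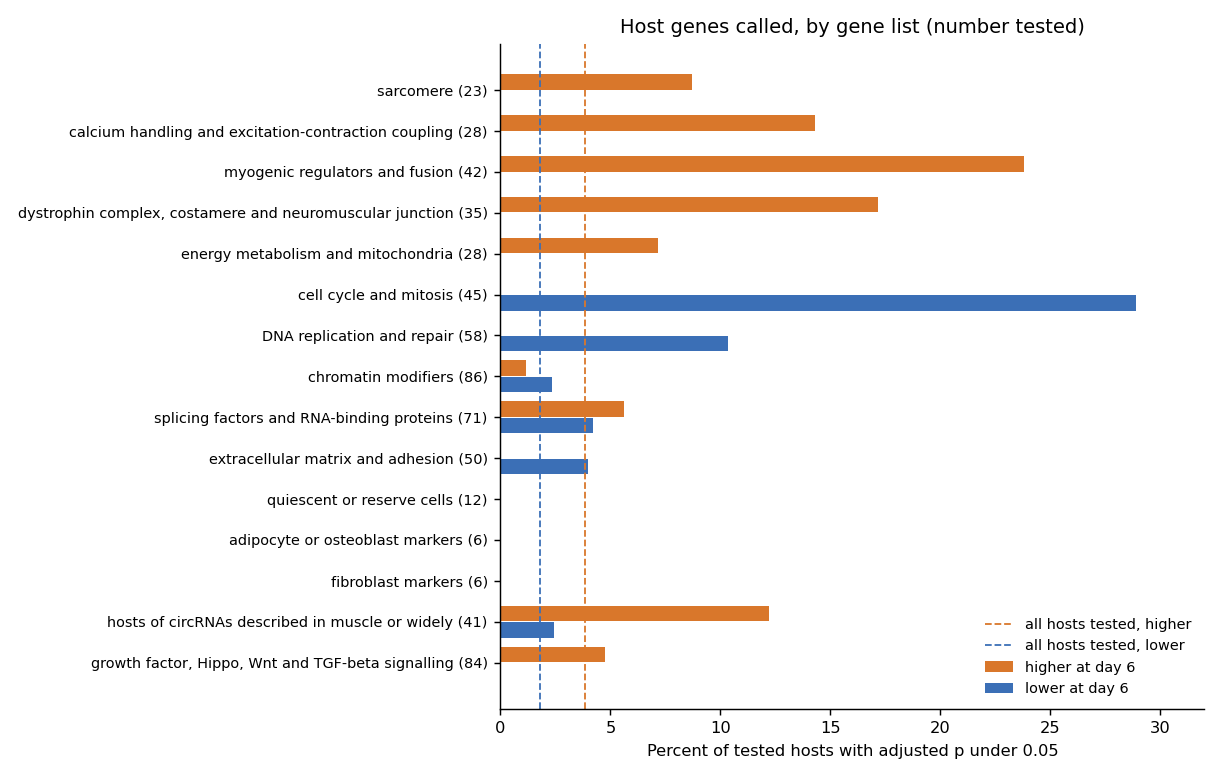
Percent of tested hosts called higher (orange) or lower (blue) at day 6 in 15 of the 17 gene lists, with the number tested in parentheses and dashed lines for all 4135 hosts tested (3.85% higher, 1.79% lower). Cell cycle hosts reach 28.9% lower and myogenic hosts 23.8% higher. One host can sit in several lists, and the lists were chosen with earlier results of these data known.

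Few rings separated day 6 from day 3. In the direct test 5 of 8153 circRNAs passed (0.0613%), all lower at day 6. Of 4135 hosts, 3 passed (0.0726%), 1 higher (0.0242%) and 2 lower (0.0484%). An unadjusted edgeR p under 0.05 was reached by 354 of the 8153 circRNAs and 246 of the 4135 hosts. A share of 0.05 is expected to reach it where nothing differs. Both days share the day 0 libraries as controls in the comparisons with day 0, so the values of the 3 days are given side by side. The Zbtb38 ring described above had 384, 694 and 792 CPM at day 0, 83.5, 66.6 and 138 at day 3 and none at day 6, and differed between days 6 and 3 with edgeR adjusted p = 1.07e-05. The Spag5 ring was at 398, 694 and 988 CPM at day 3, between the days, and differed by -1.77 ± 0.26 log2 (adjusted p = 3.92e-05). Rings of Bub1b exons 17 to 19 and Cd44 exons 12 to 15 were at 77.0, 137 and 44.0 and at 96.3, 87.6 and 111 CPM at day 3 and at 0 in all day 6 libraries (adjusted p = 0.00937 and 0.0143). The Zfp516 ring was at 3236, 2643 and 3274 CPM at day 3, -0.81 ± 0.17 log2 (0.0143). Cd44 did not pass without day 6 replicate 3 (adjusted p = 0.0709) and Zfp516 not without day 6 replicate 1 (0.0777) or with a minimum count of 10 (0.19). Summed by host, Pkhd1 was the 1 gene that rose from day 3 to day 6. This gene of a ciliary membrane protein was at 0 in the day 0 libraries, at 185, 102 and 174 CPM at day 3 and 959.9, 1112 and 751 at day 6, a log2 difference between days 6 and 3 of 2.61 ± 0.43 (edgeR adjusted p = 0.00183). Against day 0 it was at least 87.8-fold higher (3.64e-12). Igsf5, an adhesion protein gene of the immunoglobulin family, went from 399, 169 and 383 through 42.3, 87.8 and 94.4 CPM to none at day 6 (adjusted p against day 3 = 0.0147). Igsf5 did not pass without day 0 replicate 1 or 3 (0.0559 and 0.144). With DESeq2, 20 circRNAs passed, and without day 3 replicate 2, 8 did.

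**Figure D5:**
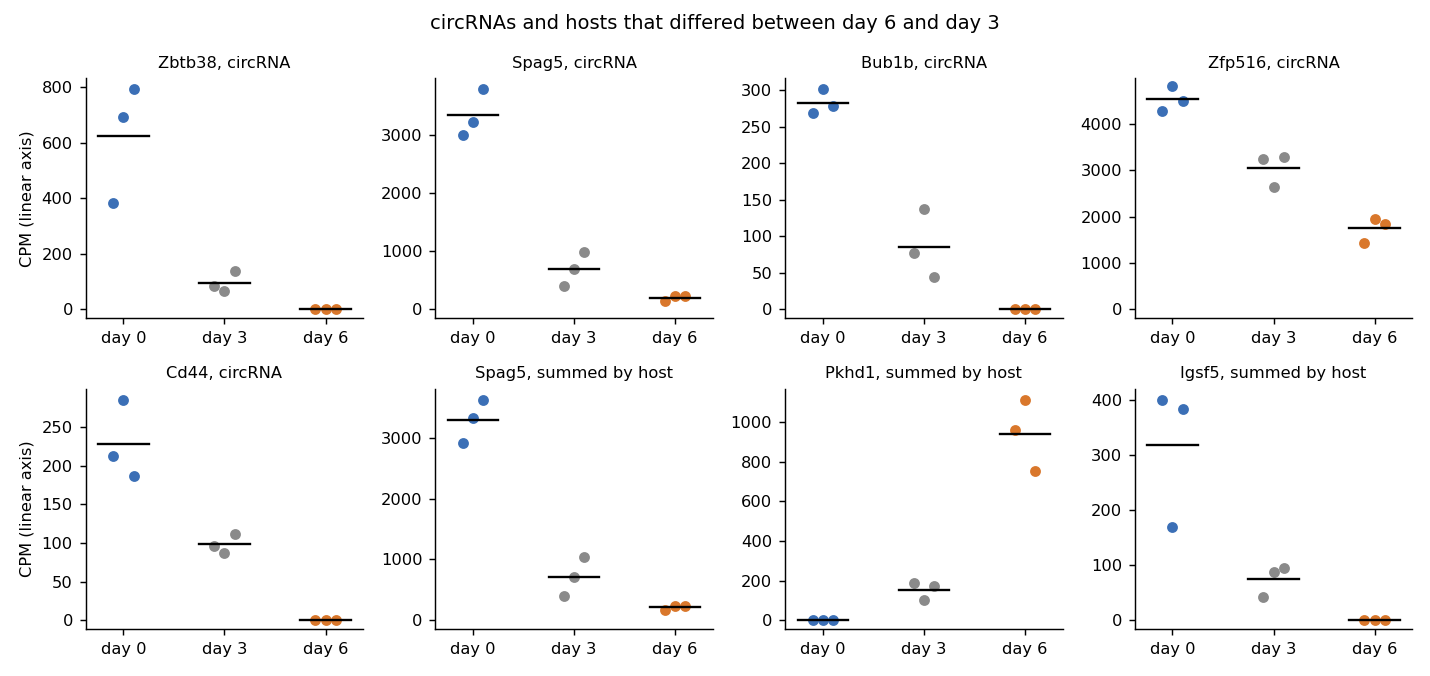
Levels at days 0, 3 and 6 (3 libraries each, points; bars, mean) of the 5 circRNAs and 3 hosts that differed between days 6 and 3, in CPM on linear axes. Each item except Pkhd1 is lowest at day 6, and Pkhd1 is highest at day 6.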

How the data were processed

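Back-splice junction reads were measured in 9 C2C12 libraries, 3 each at days 0, 3 and 6. The authors deposited 1 table of raw counts per circRNA and library, with locus, type, host and, for some, a circBase entry. Per the submitters' processing notes BWA and GRCm38.p4 (mm10) were used. The circRNA caller, versions, filters and treatment of duplicates are not stated in the labels. The column FH6_1 was taken as day 6 replicate 1, as its sample's description names it.

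Counts were tested as deposited with edgeR 4.0.16 (R 4.3.3): quasi-likelihood F-test, TMM, filterByExpr with minimum count 5 and minimum total 15, all 9 libraries, group means, Benjamini-Hochberg adjusted p with a threshold of 0.05. The filter kept 8153 circRNAs with 86.2% of reads. Counts summed by host gene identifier were tested alike, with their own totals as library sizes (4135 hosts, 97.4% of reads). For 117 circRNAs with 2 identifiers the pair was kept as its own host. Use within a host was tested with diffSpliceDGE. The approximate SE was taken as the size of the log2 fold change over the root of F. Where a group had no reads, folds are lower bounds against a floor of 3 reads per library. No molecular identifiers are named, so floors cover counting error only. Depth was 208787 to 443955 reads per library. Exon numbers and junctions come from GENCODE M21, in which 86.8% of starts and 86.8% of ends lie at an exon edge. DESeq2 1.42.0, other scalings and filters, a fit of 2 groups, a replicate block and leaving out each library were alternatives.

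The circRNAs named are the 12 higher and 12 lower with the highest level, the 5 most abundant called intronic and intergenic ones, the 10 most abundant at day 6, and the 8 with the smallest p in the test of use (the other 2 past the threshold were added). The hosts named are the 10 higher and 10 lower with the highest level and every called host of 17 gene lists. Counts for 2 of the lists and the values of 1 called host are not reported here. The members and lists were chosen with earlier results of these data known. Uncalled list members with the highest levels also entered the rule, and a few of them are named.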

Additional observations from a re-analysis of the deposited data

Results flagged for a closer look

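Each of these effects against day 0 differed between day 6 and day 3 by a direct edgeR test. For the circRNAs the adjusted p was 1.07e-05 (Zbtb38), 3.92e-05 (Spag5), 0.00937 (Bub1b), 0.0143 (Zfp516) and 0.0143 (Cd44), all lower at day 6. For the hosts it was 0.00064 (Spag5, lower), 0.00183 (Pkhd1, higher) and 0.0147 (Igsf5, lower).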

How the results depend on the processing

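In a fit of only the day 6 and day 0 libraries, 70 circRNAs (46 higher, 24 lower) and 139 hosts (94 higher, 45 lower) passed. With DESeq2, 466 circRNAs (272 higher, 194 lower), 460 hosts (246 higher, 214 lower) and, at day 6 against day 3, 20 circRNAs passed. With no filter 9 circRNAs passed at day 6 against day 3. With 1 library left out, 143 to 197 circRNAs passed, 100 to 169 higher and 28 to 50 lower, and 185 to 263 hosts, 119 to 173 higher and 42 to 90 lower; 5 to 8 circRNAs passed against day 3 and 3 to 11 in the test of use. Over circRNAs in at least 2 libraries the intronic difference was -0.389 and the intergenic 0.15 percentage points. The cause of these differences was not tested.

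With a replicate block 172 circRNAs (127 higher, 45 lower) and 259 hosts (172 higher, 87 lower) passed. Deviations of same-numbered libraries of days 0 and 6 correlated at -0.0103, 0.0012 and 0.0006 over circRNAs. Those of different-numbered libraries correlated at -0.00975 to 0.00953. Most of these rings have few reads, so the values cannot show whether the replicate numbers pair the samples. Single calls lost under the block were Zeb1 (circRNA), Uhrf1, Lpin1, Rrm1, Dock4 and Ryr3 (hosts) and Ranbp9 in the test of use, and Bard1 and Fanci moved to -5.48 and -5.60 log2.

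Of 39 named called circRNAs 27, and of 86 named called hosts 53, passed in every alternative that tested them. Leaving out a library lets the filter pass more circRNAs (11138 to 11851), and edgeR's prior degrees of freedom become infinite in these circRNA fits. They are infinite with no filter and with a replicate block as well. For hosts, 4645 to 4796 are then tested, with prior degrees of freedom from 36.4 to infinite. The p-values of these fits are therefore not on the same footing as those of the main fit. The Gigyf2 ring had an edgeR adjusted p of 4.18e-10 in the main fit and at most 1.37e-22 with 1 library left out. For the Zeb1 ring they were larger, 0.0428 and then 0.0524 to 0.325. Neither a pass nor a loss in such a fit reflects the library left out alone. The median log2 difference of hosts was -0.13, and -0.24 with library totals as scaling. With 208787 to 443955 reads, the floor of 3 reads is 7.10 to 13.5 CPM at days 0 and 6, and changes in rings near it are not detectable at this depth.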
